A study of Homo sapiens with 9 samples.

Results

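The direct comparison of rakicidin A with BE-43547A1 rests on 6 of the 9 libraries of the series, 3 per compound, each made from PANC-1 cells, an established human pancreatic carcinoma line, after 12 h in hypoxia. The libraries were chosen by their labels alone: RakA 1 to 3 had 42 nM rakicidin A and BEA 1 to 3 had 41 nM BE-43547A1 in the medium, so the doses differed slightly. The other 3 libraries, from cells in hypoxia with 0.04% DMSO, serve here only as the level from which both compounds depart. Of 112171 annotated features in the count table, 57820 came from GENCODE, and 18122 of these had enough counts to be tested. Cells in normal oxygen are not part of the comparison, and how much DMSO accompanied either compound is not stated. It is also not stated whether the replicates were cultured separately, so p-values refer only to the variation among the libraries, part of which may be technical.

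Rakicidin A is a cyclic lipodepsipeptide made by bacteria and is known for killing cancer cells more strongly in hypoxia than in normal oxygen. Cells meet unfolded protein in the endoplasmic reticulum (ER) with 3 sensors, the products of ERN1, ATF6 and EIF2AK3, which raise chaperones, the machinery of ER-associated degradation and, through the transcription factor ATF4, genes of amino acid supply. A separate and faster layer is formed by immediate early genes such as FOS and EGR1 and by targets of NF-kB, whose transcripts turn over quickly and which often include their own inhibitors.

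The rakicidin A libraries held 26203326 to 34870860 counts on features, the BE-43547A1 libraries 39807220 to 45048999 and the DMSO libraries 27696394 to 30596594. Over the 6 treated libraries the first principal component of log2 CPM (library-size-scaled counts, with TMM factors) held 66.2% of the variance and separated the compounds, with BE-43547A1 at -39.3 to -29.02 and rakicidin A at 32.0 to 40.7. The second held 10.6% and set rakicidin A replicate 3, at 26.8, apart from the other rakicidin A libraries at -19.5 and -10.5. Marker genes of pancreatic ductal cancer cells, a list that also holds VIM and CD44, were expressed in all groups. KRT8 was at 767, 752 and 729 CPM after rakicidin A and 1300.1, 1198 and 1197 CPM after BE-43547A1. Of 11 such markers, all tested, 6 were lower after rakicidin A and 1 higher (median log2 -0.29). None of 10 acinar and islet markers had enough counts to be tested. Of 10 leukocyte markers 3 were tested and 2 of them were lower after rakicidin A, CD14 at 0.145, 0.0319 and 0.129 CPM against 0.584, 0.666 and 0.444 CPM after BE-43547A1 and ITGAM at 1.71, 1.56 and 1.89 CPM against 2.85, 2.22 and 2.30 CPM. Of 12 stromal and endothelial markers 4 were tested and THY1 was lower after rakicidin A (log2 -0.49 ± 0.16). The call of THY1 was lost without BE-43547A1 replicate 2, rakicidin A replicate 1 or rakicidin A replicate 3 (log2 -0.46 to -0.40), and that of ITGAM without BE-43547A1 replicate 1 or rakicidin A replicate 2 (log2 -0.41 and -0.45). The part of these markers in the results was not tested.

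GC content moved with the compound. Among 5 equal groups of protein-coding genes, from low to high GC percent, the median log2 fold change of rakicidin A over BE-43547A1 was 0.24, 0.19, 0.10, -0.04 and -0.16. Of the 2537 genes in the lowest group 1402 were higher after rakicidin A and 221 lower, against 281 and 816 in the highest group. The libraries of the compounds did not overlap in the lowest or the highest group, and the DMSO libraries overlapped rakicidin A in the lowest and BE-43547A1 in the highest. Transcript length moved as well. In the shortest of 5 length groups 541 of 2540 genes were higher after rakicidin A and 702 lower. In the longest group, of 2537 genes, the counts were 1060 and 360. The part of GC content and length in the results that follow was not tested beyond an offset for GC and length. Its counts, like those of other settings, are given where a list's count moved by at least 3 members and more than 1.5 times.

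**Figure D1:**
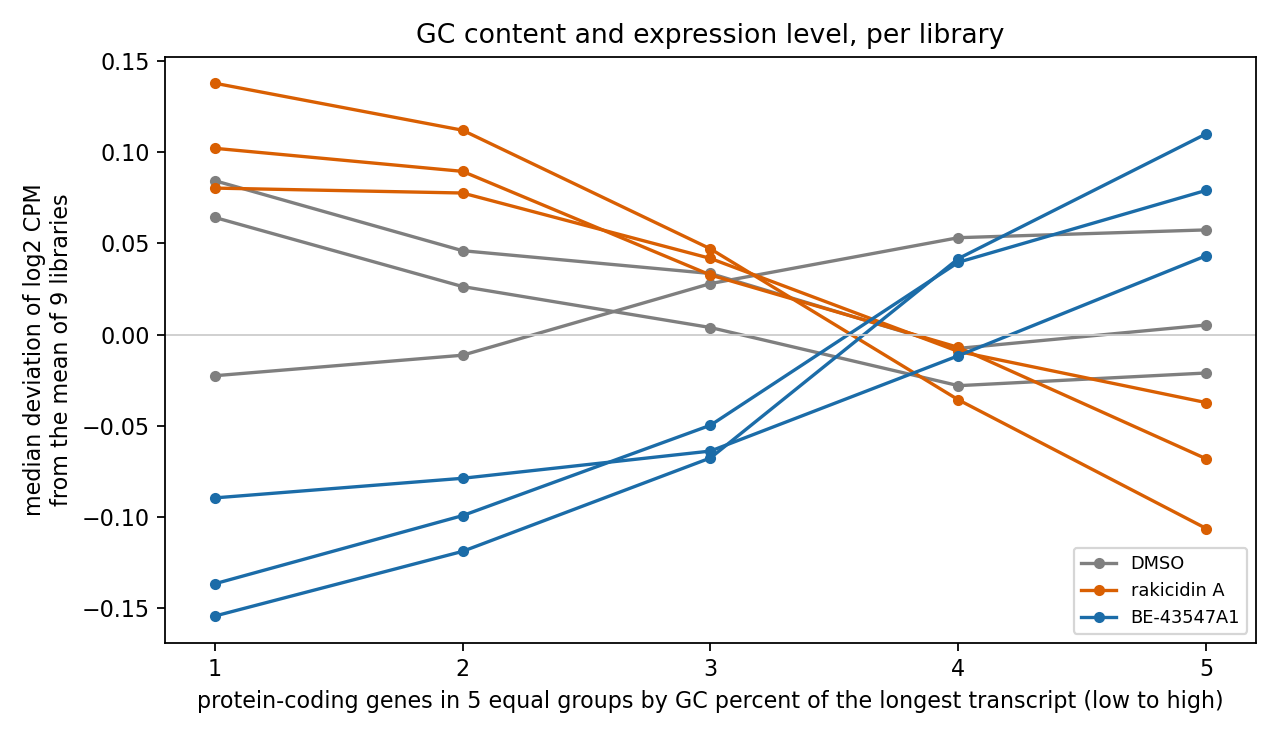
Median deviation of log2 CPM from the mean of the 9 libraries (y axis) in 5 equal groups of protein-coding genes ordered by the GC percent of their longest transcript (x axis), 1 line per library. In the lowest group the rakicidin A libraries sat between 0.08 and 0.14 and the BE-43547A1 libraries between -0.15 and -0.09, and the order was the reverse in the highest group.

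The compounds differed in a large share of the transcriptome, mostly by small amounts. They form the single pair compared, and p-values were adjusted over all 22353 features tested. Of 18122 GENCODE genes tested, 8791 (48.5%) differed between rakicidin A and BE-43547A1 at an adjusted p below 0.05 in edgeR's quasi-likelihood test, 5119 of them (28.2%) higher after rakicidin A and 3672 (20.3%) lower. Of the 12685 protein-coding genes tested 35.1% were higher and 19.1% lower, against 6.51% and 31.1% of 1214 antisense genes. With library sizes taken from total counts alone, the median log2 fold change of all GENCODE genes moved from 0.03 to -0.09. The split then turned to 3741 higher and 5263 lower, and a fit to GENCODE features alone gave 4669 and 4242. The direction of small differences thus depends on the scaling, and the medians of the lists that follow shift downwards with total counts alone. A difference of at least 2-fold was less common, with 367 genes (2.03%) higher and 818 (4.51%) lower after rakicidin A (6.54% in all), and 14 higher and 110 lower by at least 4-fold. Of the genes that differed, 5443 did so by less than 1.5-fold. For 8748 genes the 95% interval lay within 1.5-fold on either side of no difference, 3555 of which still passed the test.

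The DMSO level shows where each difference lies under the TMM scaling. For DMSO the TMM factors were 1.14 to 1.15. Those of rakicidin A were lowest, at 0.89 to 0.90, and BE-43547A1 lay between at 0.96 to 0.99. Positions above or below DMSO, here and wherever they are given below, depend on these factors. How another scaling would change the counts of these positions was not tested. The values of the compounds did not overlap in 60.0% of the GENCODE genes tested, with rakicidin A higher in 34.0% and lower in 26.0%. In 4984 of the genes that differed, the values of all 3 groups did not overlap. Among these, 1548 were above DMSO after both compounds and higher after rakicidin A, and 936 were above DMSO after both and higher after BE-43547A1. Below DMSO after both compounds were 1208 genes with the lower level after BE-43547A1 and 627 with the lower level after rakicidin A. In 508 genes BE-43547A1 lay below and rakicidin A above DMSO, and in 157 the positions were exchanged. At a difference of 2-fold or more the commonest order was both above DMSO with BE-43547A1 higher, in 234 of 540 genes.

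Among the 12 genes with the largest differences in favour of rakicidin A, vesicle traffic, cystine import and DNA repair were represented. RAB39B (ENSG00000155961.4), a small GTPase of vesicle traffic, reached 48.2, 41.6 and 50.6 CPM after rakicidin A, 10.2, 10.7 and 11.9 CPM after BE-43547A1 and 2.04, 2.21 and 2.27 CPM in DMSO. Both compounds lay above DMSO with no overlap, and the fold change between them was 4.27 (log2 2.10 ± 0.09 (SE), adjusted p = 1.66e-11). ENC1, a kelch protein that binds actin, parted the compounds in opposite directions from the solvent, with 73.8, 76.5 and 78.9 CPM after rakicidin A, 24.7, 21.01 and 24.5 CPM after BE-43547A1 and 50.3, 48.8 and 44.4 CPM in DMSO (log2 1.71 ± 0.07, adjusted p = 1.92e-11). FIGNL1, an ATPase of homologous recombination, was at 152, 139.8 and 155 CPM after rakicidin A, within reach of DMSO at 147, 152 and 134 CPM, and at 47.1, 48.5 and 54.7 CPM after BE-43547A1 (log2 1.57 ± 0.07, adjusted p = 1.98e-11). For FIGNL1 the rakicidin A values overlapped DMSO and the BE-43547A1 values lay below it.

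TRIM38, a ubiquitin ligase of innate immune signalling, parted like ENC1, at 16.2, 16.5 and 19.7 CPM after rakicidin A, 5.25, 6.14 and 6.03 CPM after BE-43547A1 and 13.1, 13.1 and 12.5 CPM in DMSO. Its position above DMSO after rakicidin A, by a small gap, rests on the TMM scaling. SERPINB8, a serine protease inhibitor, was above DMSO after both compounds, at 28.3, 26.4 and 28.1 CPM after rakicidin A against 8.62, 9.40 and 9.89 CPM after BE-43547A1 and 3.23, 3.88 and 3.94 CPM in DMSO. Their log2 fold changes were 1.59 ± 0.10 and 1.57 ± 0.09 (adjusted p = 8.68e-10 and 2.39e-10). BDNF, a neurotrophin, stood at 3.96, 4.69 and 5.10 CPM after rakicidin A and 1.57, 1.31 and 1.59 CPM after BE-43547A1, the latter overlapping DMSO at 1.86, 2.02 and 1.39 CPM (log2 1.62 ± 0.17). ZNF550, a zinc finger gene, was at 75.4, 62.5 and 73.02 CPM after rakicidin A and 24.1, 21.7 and 24.6 CPM after BE-43547A1. The transposon-derived SCAND3 was at 5.01, 4.44 and 5.66 CPM after rakicidin A and 1.37, 0.863 and 1.15 CPM after BE-43547A1. The pseudogenes CCDC163P (log2 2.38), ROCK1P1 (2.18) and RHOQP3 (1.85) also belonged to the 12, but their reads can be shared with near-identical copies.

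The 12 genes with the largest differences in favour of BE-43547A1 were led by a semaphorin and by immediate early genes. SEMA4A (ENSG00000196189.8), a membrane semaphorin that signals between immune, endothelial and neural cells, stood at 16.2, 17.04 and 11.6 CPM after BE-43547A1 and at 1.13, 1.15 and 0.643 CPM after rakicidin A. In DMSO it was close to undetected, at 0.0915, 0.0315 and 0.0851 CPM. The groups did not overlap, and the level after BE-43547A1 was 15.02-fold higher (log2 -3.91 ± 0.19, adjusted p = 5.43e-11). ARL14, a small GTPase of vesicle movement, reached 35.8, 37.6 and 30.1 CPM after BE-43547A1 against 7.85, 7.63 and 6.78 CPM after rakicidin A and 6.87, 6.05 and 5.96 CPM in DMSO. In ARL14 the rakicidin A values overlapped DMSO, and the log2 fold change between the compounds was -2.21 ± 0.10 (adjusted p = 2.15e-11).

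ST14, which encodes the membrane protease matriptase, was at 5.46, 5.06 and 4.20 CPM after BE-43547A1, 1.53, 1.12 and 0.986 CPM after rakicidin A and 0.824, 0.504 and 0.652 CPM in DMSO (log2 -2.01 ± 0.19). RINL, which encodes a Ras and Rab interactor, was at 4.42, 4.32 and 3.84 CPM after BE-43547A1 and 0.763, 0.830 and 0.557 CPM after rakicidin A (log2 -2.52 ± 0.18). KIAA1683 stood at 5.25, 5.75 and 4.10 CPM after BE-43547A1 and 0.654, 0.638 and 0.858 CPM after rakicidin A (log2 -2.83 ± 0.22). All 3 were low after rakicidin A, under 2 CPM in each library. RPSAP47 (log2 -2.95), a pseudogene, and KRTAP5-AS1 (log2 -2.60), an antisense gene, are uncertain, because reads of close copies or of the opposite strand may be included and the strand setting of the counting is not given.

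**Figure D2:**
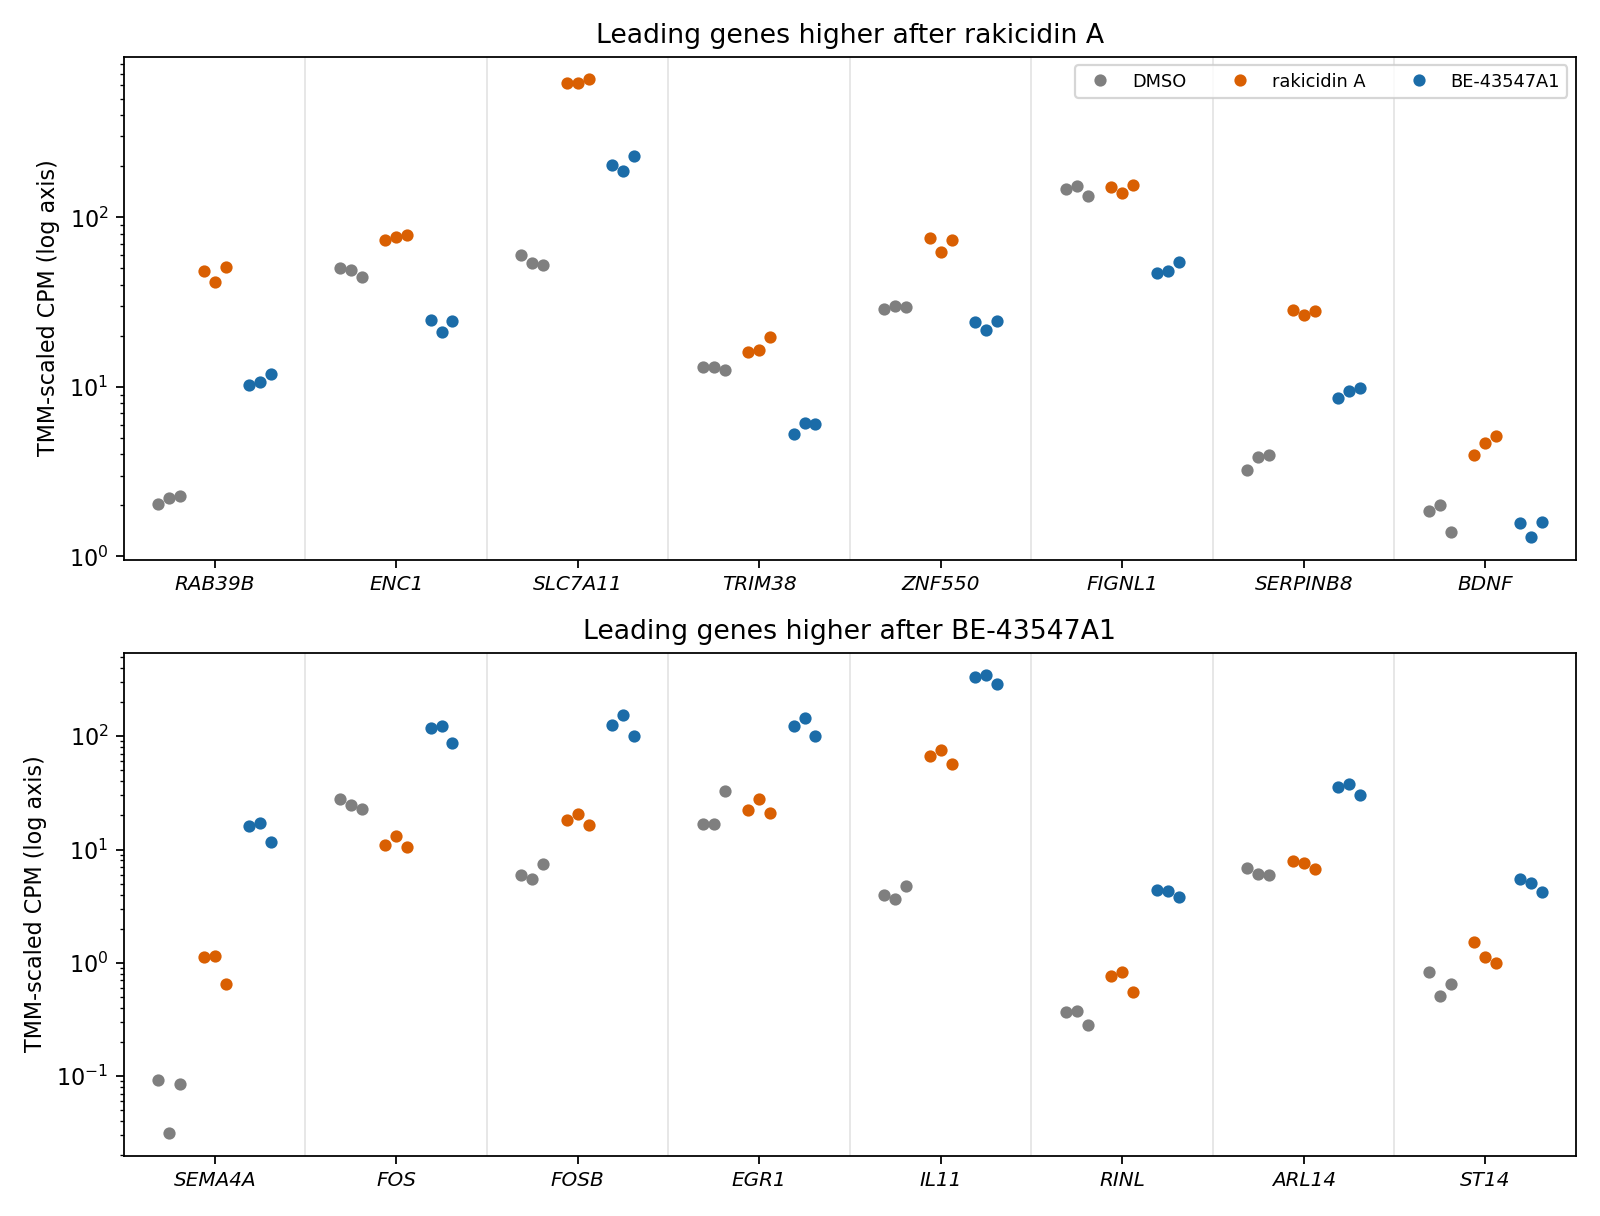
CPM scaled by TMM (log axis) of 8 genes higher after rakicidin A (upper panel) and 8 higher after BE-43547A1 (lower panel), with 1 point per library and 3 libraries for each of DMSO, rakicidin A and BE-43547A1. The points of the compounds do not overlap in any of the 16 genes, whereas DMSO lies below both in RAB39B and SEMA4A and between them in ENC1 and FOS.

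Of 20 ER chaperones and folding enzymes tested, 19 were higher after rakicidin A and none lower. Of all GENCODE genes tested 28.2% were higher and 20.3% lower, and of the protein-coding ones 35.1% and 19.1%. Every list count that follows is to be read beside these shares. The median log2 fold change of the list was 0.54, beside 0.03 over all genes and 0.07 over protein-coding genes. In bulk RNA fewer cells of a type and less RNA per cell cannot be told apart, here and in every list that follows. In 18 of the 19 the 3 groups were apart in the order DMSO, BE-43547A1, rakicidin A. The same held for 1548 of the 18122 GENCODE genes tested. CRELD2, an ER stress-inducible folding factor, reached 269.8, 251 and 276 CPM after rakicidin A, 129, 128 and 128 CPM after BE-43547A1 and 30.5, 26.9 and 24.6 CPM in DMSO (log2 1.05 ± 0.07, adjusted p = 9.88e-10). DNAJC3, a co-chaperone that also restrains eIF2alpha kinases, was at 994, 999.7 and 1026 CPM after rakicidin A, 553, 547 and 616 CPM after BE-43547A1 and 150.03, 146 and 132 CPM in DMSO (log2 0.81 ± 0.06, adjusted p = 8.20e-09). HYOU1, a large chaperone of the HSP70 group, differed less, with 1664, 1587 and 1623 CPM after rakicidin A against 1059, 1011 and 1076 CPM after BE-43547A1 (log2 0.63 ± 0.05).

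The exception was HSPA5, the gene of the chaperone BiP. It stood at 1925, 2115 and 2072 CPM after rakicidin A and 1776, 2144 and 2004 CPM after BE-43547A1, overlapping ranges, against 96.5, 92.4 and 152 CPM in DMSO. Its log2 fold change was 0.05 ± 0.13, with a 95% interval of -0.22 to 0.31 (adjusted p = 0.795) and so within 1.5-fold of no difference. HSP90B1, another ER chaperone, did differ, with means of 7503 and 5489 CPM (log2 0.45 ± 0.06, adjusted p = 4.22e-06). The ER stress element, searched as CCAAT followed after 9 bases by CCACG on both strands in the 250 bases before the RefSeq start, was in 6 of 19 ER chaperone promoters (31.6%), against 0.0809% of all 27195 promoters in the table and 0.129% of the 10852 tested genes with a promoter. CRELD2 and HSPA5 are shown because both hold the element and differ in their response, 5′ to 3′ on the gene's strand in GRCh38.p14, with matches to any searched motif in capitals:
CRELD2, chr22:49918384-49918633, plus strand: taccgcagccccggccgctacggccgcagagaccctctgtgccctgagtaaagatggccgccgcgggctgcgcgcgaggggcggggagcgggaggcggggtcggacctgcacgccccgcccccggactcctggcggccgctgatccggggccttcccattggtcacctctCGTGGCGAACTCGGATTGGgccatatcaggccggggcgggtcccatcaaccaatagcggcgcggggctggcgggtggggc
HSPA5, chr9:125241344-125241593, minus strand: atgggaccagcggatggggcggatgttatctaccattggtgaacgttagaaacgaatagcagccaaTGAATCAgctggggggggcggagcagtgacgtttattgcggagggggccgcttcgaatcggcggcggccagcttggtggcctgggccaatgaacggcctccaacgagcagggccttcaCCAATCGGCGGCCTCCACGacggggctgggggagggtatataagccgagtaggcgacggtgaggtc
In both the capitals nearest the start are the ER stress element, first base at -80 in CRELD2, on the reverse strand, and at -66 in HSPA5, and the other capitals in HSPA5, from -184, match the AP-1 motif TGANTCA. A match describes letters and not binding.

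Of 19 genes of ER-associated degradation, 15 were higher after rakicidin A and none lower (median log2 0.52). In 14 the groups were apart in the order DMSO, BE-43547A1, rakicidin A, as in 1548 of the 18122 GENCODE genes tested. DERL2, a derlin of the retrotranslocation channel, was at 189.7, 191 and 207 CPM after rakicidin A, 93.5, 92.2 and 108 CPM after BE-43547A1 and 40.03, 39.1 and 34.7 CPM in DMSO (log2 1.00 ± 0.07, adjusted p = 3.20e-09). SEL1L, the scaffold of the HRD1 ubiquitin ligase, followed at 783, 798 and 834 CPM and 440.1, 414 and 479.9 CPM in the same order of compounds (log2 0.86 ± 0.06). UBE2J1, a ubiquitin-conjugating enzyme, was at 175, 162 and 178 and 97.1, 94.1 and 101 CPM (log2 0.82 ± 0.06). ERLEC1, an ER lectin, was at 258, 245 and 266 and 128, 134 and 153 CPM (log2 0.89 ± 0.07). The groups were apart in all 4. AUP1, EDEM1 and FAM8A1 did not pass the test, with log2 fold changes of 0.09 to 0.17.

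Among 10 sensors and transcription factors of the unfolded protein response 6 were higher after rakicidin A and 1, MBTPS2, lower (median log2 0.25). EIF2AK3, the sensor kinase PERK, showed the widest gap, at 460.4, 456 and 469 CPM after rakicidin A, 277, 272 and 300.1 CPM after BE-43547A1 and 36.4, 35.5 and 31.4 CPM in DMSO (log2 0.71 ± 0.06, adjusted p = 3.50e-08). ATF6 (log2 0.40 ± 0.05), CREB3 (log2 0.32 ± 0.06), an ER-bound factor, and WFS1 (log2 0.47 ± 0.06), an ER membrane protein, were also higher. WFS1 differed in position, since at 44.6, 40.1 and 40.4 CPM after rakicidin A and 31.8, 28.7 and 29.98 CPM after BE-43547A1 both compounds lay below DMSO at 50.6, 50.6 and 52.2 CPM. ERN1, the sensor IRE1, was at 56.7 and 55.97 CPM on average, with a 95% interval of the log2 fold change of -0.10 to 0.14.

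In the list of ATF4 targets and the integrated stress response, 23 of 36 genes were higher after rakicidin A and 2 lower (median log2 0.29). SLC7A11, the cystine importer subunit that supplies glutathione synthesis, was at 618, 618 and 650.5 CPM after rakicidin A, 203, 187 and 229 CPM after BE-43547A1 and 59.6, 54.1 and 52.3 CPM in DMSO, a difference of 3.05-fold between the compounds (log2 1.61 ± 0.07, adjusted p = 1.98e-11). TRIB3, a pseudokinase induced through ATF4 and CHOP, was at 244, 212 and 219 CPM, 83.9, 72.5 and 89.1 CPM and 13.2, 12.7 and 12.1 CPM in the same order of groups (log2 1.46 ± 0.07, adjusted p = 8.25e-11). FAM129A, which encodes the stress protein Niban, was 2.31-fold higher after rakicidin A (log2 1.21 ± 0.08). PSPH, the last enzyme of serine synthesis, was at 71.3, 67.7 and 73.2 CPM after rakicidin A and 39.2, 39.6 and 40.6 CPM after BE-43547A1, above and below DMSO at 59.9, 60.2 and 53.6 CPM (log2 0.83 ± 0.06). Its position above DMSO after rakicidin A, by a small gap, rests on the TMM scaling.

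ATF4 itself differed modestly, with means of 828 and 640.2 CPM (log2 0.37 ± 0.05). NUPR1 (log2 -0.39) and DDIT4 (log2 -0.37), stress-inducible regulators, were the 2 members lower after rakicidin A. CHAC1, a glutathione-degrading enzyme, was at 93.6 CPM after rakicidin A and 52.1 CPM after BE-43547A1 (log2 0.85 ± 0.08), and its promoter holds the C/EBP-ATF element TGATGNAA on the reverse strand (first base at -209). That element was in 4 of 29 promoters of the list (13.8%), 1.39% of the tested genes' promoters and 3.18% of all promoters:
CHAC1, chr15:40953221-40953470, plus strand: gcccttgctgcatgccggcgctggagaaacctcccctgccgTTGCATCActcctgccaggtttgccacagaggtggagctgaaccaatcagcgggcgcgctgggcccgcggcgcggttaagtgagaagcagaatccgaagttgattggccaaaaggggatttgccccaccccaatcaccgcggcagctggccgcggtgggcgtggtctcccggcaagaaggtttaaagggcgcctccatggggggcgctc
Capitals mark the element. With total counts alone the list's count fell to 16 higher and 4 lower.

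Aminoacyl-tRNA synthetases, which charge tRNAs and are in part ATF4 targets, followed: 15 of 20 were higher after rakicidin A and none lower (median log2 0.38, or 0.21 with the GC and length offset). The methionyl enzyme gene MARS stood at 463, 469 and 467 CPM after rakicidin A, 263, 258 and 270.5 CPM after BE-43547A1 and 205, 198 and 213 CPM in DMSO (log2 0.82 ± 0.05, adjusted p = 1.00e-09). The asparaginyl enzyme gene NARS was at 587, 581 and 589 CPM after rakicidin A and 343, 345 and 367 CPM after BE-43547A1 (log2 0.74 ± 0.05). In RARS, the arginyl enzyme gene, rakicidin A lay above DMSO at 439, 414 and 447 CPM, whereas BE-43547A1 at 254, 258 and 290.4 CPM overlapped DMSO at 347, 323 and 289 CPM.

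The next genes were named as large shared departures from DMSO among those whose 95% interval between the compounds lay within 1.5-fold. Their nearly equal size after both compounds follows from that choice. ATF3, a stress-induced factor of the ATF family, stood at 946, 979 and 902 CPM after rakicidin A and 1041, 1049 and 931 CPM after BE-43547A1, against 11.3, 11.04 and 12.6 CPM in DMSO. Its log2 fold change between the compounds was -0.10 ± 0.06 (95% interval -0.22 to 0.03, adjusted p = 0.213). RCAN1, a calcineurin regulator, was at 1203, 1198 and 1238 CPM and 1148, 1153 and 1131 CPM in the same order, against 20.6, 20.8 and 19.1 CPM in DMSO (interval -0.02 to 0.19, adjusted p = 0.185). In RCAN1 the values of the compounds did not overlap, although the difference did not pass the test. DDIT3, the stress factor CHOP, stood at 405, 408 and 382 CPM after rakicidin A and 388, 354 and 347 CPM after BE-43547A1 (interval 0.01 to 0.26, adjusted p = 0.0818). Neither ATF3 nor DDIT3 is firm in this respect. ATF3 passed with total counts alone (log2 -0.22, adjusted p = 0.00829 in edgeR) and with the GC and length offset (log2 -0.14, adjusted p = 0.0410 in edgeR). DDIT3 passed with that offset (log2 0.21, adjusted p = 0.00399 in edgeR) and in the fit to the 6 treated libraries (log2 0.13, adjusted p = 0.0334 in edgeR). It also passed with limma-voom (log2 0.14) and without BE-43547A1 replicate 1, DMSO replicate 1 or DMSO replicate 3.

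GADD45A, a growth arrest gene, had 734, 769 and 733 CPM after rakicidin A and 726, 773 and 757 CPM after BE-43547A1, against 36.9, 41.5 and 39.8 CPM in DMSO (interval -0.13 to 0.10). Its values overlapped, and the adjusted p was 0.874, though with total counts alone it was 0.0477 at log2 -0.13 in edgeR. MAFF, a small Maf factor (-0.38 ± 0.05), CSRNP1, an early nuclear protein (-0.29 ± 0.07), and ANKRD1, a YAP target (-0.18 ± 0.07), passed the test with log2 fold changes whose intervals lay within 1.5-fold. For ANKRD1 the call was lost without any 1 of 5 treated libraries, with log2 fold changes of -0.18 to -0.11. It was also lost with DESeq2 on all libraries (log2 -0.17, adjusted p = 0.0556 in DESeq2).

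Of 11 subunits and relatives of AP-1, a family of immediate early factors, 7 were lower after rakicidin A than after BE-43547A1 and 1, MAFK, was higher (median log2 -0.38). FOS stood at 118, 124 and 87.1 CPM after BE-43547A1, 10.97, 13.3 and 10.5 CPM after rakicidin A and 27.7, 24.8 and 22.8 CPM in DMSO, so that rakicidin A lay below and BE-43547A1 above the solvent. The difference between the compounds was 9.41-fold (log2 -3.23 ± 0.12, adjusted p = 1.47e-11). FOSB was at 126, 155 and 99.7 CPM after BE-43547A1, 18.2, 20.6 and 16.5 CPM after rakicidin A and 5.95, 5.49 and 7.37 CPM in DMSO, with both compounds above the solvent (log2 -2.78 ± 0.13). JUN, the partner of FOS in AP-1, was at 2070.3, 2139 and 1742 CPM after BE-43547A1, 654, 701 and 609 CPM after rakicidin A and 151, 162 and 160.2 CPM in DMSO (log2 -1.60 ± 0.07, adjusted p = 2.81e-11). JUNB took the same position as FOS, at 90.3, 87.6 and 77.01 CPM after BE-43547A1, 29.02, 28.6 and 27.1 CPM after rakicidin A and 36.2, 33.6 and 34.6 CPM in DMSO (log2 -1.59 ± 0.07). FOSL2 (log2 -0.03, 95% interval -0.15 to 0.08) and FOSL1 (log2 -0.25, 95% interval -0.49 to -0.01) did not pass.

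Of 19 genes of the EGR, IER, NR4A and KLF families and their partners, 17 were lower after rakicidin A and none higher. The median log2 fold change was -0.70. Of all GENCODE genes tested 20.3% were lower, and of the protein-coding ones 19.1%. In 14 of the list the groups were apart with both compounds above DMSO and BE-43547A1 higher. The same held for 936 of the 18122 GENCODE genes tested. EGR1, an early zinc finger factor downstream of SRF, was at 123, 145 and 100.3 CPM after BE-43547A1 and 22.2, 27.9 and 20.97 CPM after rakicidin A, the latter within the DMSO range of 16.9, 16.8 and 33.2 CPM (log2 -2.37 ± 0.19, adjusted p = 1.78e-08). EGR3 was low throughout, at 5.50, 5.13 and 4.62 CPM after BE-43547A1 and 1.16, 1.44 and 1.16 CPM after rakicidin A (log2 -2.01 ± 0.19). KLF4, a Krüppel-like factor, was at 74.1, 81.1 and 74.5 CPM after BE-43547A1, 42.4, 43.7 and 40.1 CPM after rakicidin A and 5.74, 5.93 and 6.58 CPM in DMSO (log2 -0.86 ± 0.06). IER3, an early response gene, was at 473, 479 and 493 and 299.8, 321 and 271 CPM (log2 -0.70 ± 0.06). ARC, an early gene of neurons, was at 9.11, 10.1 and 7.70 and 3.38, 3.67 and 3.34 CPM (log2 -1.37 ± 0.13). CTGF and NR4A3 did not pass, with 95% intervals of -0.06 to 0.19 and -0.77 to -0.03.

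Of 16 NF-kB subunits, inhibitors and adaptors, 9 were lower after rakicidin A and 3 higher (median log2 -0.21). NFKBIA, the inhibitor IkB alpha, stood at 293, 306 and 245 CPM after BE-43547A1, 92.3, 104 and 88.1 CPM after rakicidin A and 66.9, 73.2 and 68.1 CPM in DMSO (log2 -1.57 ± 0.08, adjusted p = 9.61e-11). TNFAIP3, the ubiquitin-editing inhibitor A20, was at 161, 171 and 138 CPM, 49.8, 61.4 and 53.4 CPM and 7.57, 7.25 and 8.74 CPM in the same order of groups (log2 -1.51 ± 0.09, adjusted p = 3.52e-10). Both were above DMSO after each compound. REL (log2 -0.79 ± 0.07) and NFKB2 (log2 -0.60 ± 0.07), subunits of the factor, differed by less. RELA, at log2 0.15 (95% interval -0.00 to 0.31), and BIRC3, an inhibitor of apoptosis at 4070.1 and 4045 CPM (interval -0.11 to 0.13), did not pass. NFKB1 (log2 0.32 ± 0.05), NFKBIZ (log2 0.48 ± 0.07) and TRAF1 (log2 0.26 ± 0.06) were higher after rakicidin A.

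Of 11 chemokines, 7 were lower after rakicidin A and 1, CCL28, higher (median log2 -0.85), and the 7 were above DMSO after both compounds. CXCL1, a neutrophil attractant, was at 75.3, 84.1 and 69.02 CPM after BE-43547A1, 36.8, 38.4 and 36.5 CPM after rakicidin A and 22.1, 21.3 and 21.95 CPM in DMSO (log2 -1.03 ± 0.07, adjusted p = 2.07e-09). CCL20, which attracts cells bearing CCR6, was at 42.2, 38.5 and 36.6 CPM, 17.2, 17.9 and 15.99 CPM and 0.305, 0.536 and 0.227 CPM in that order of groups (log2 -1.20 ± 0.09). IL8, another neutrophil attractant, was at 625, 566 and 519 CPM after BE-43547A1 and 307, 340.2 and 299 CPM after rakicidin A (log2 -0.85 ± 0.07). The membrane-bound CX3CL1 was at 105, 101 and 92.04 and 49.4, 50.3 and 49.3 CPM.

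Cytokines divided by gene. Of 21 interleukins, colony-stimulating factors and receptors of the IL6 family, 10 were lower after rakicidin A and 7 higher, and with total counts alone 11 and 4. IL11, a cytokine of the IL6 family, was at 335, 345 and 289 CPM after BE-43547A1, 66.4, 75.5 and 57.1 CPM after rakicidin A and 3.94, 3.69 and 4.74 CPM in DMSO, a difference of 4.86-fold between the compounds (log2 -2.28 ± 0.09, adjusted p = 1.66e-11). TNF, an inflammatory cytokine, was at 2.96, 2.71 and 1.80 CPM after BE-43547A1 and 0.218, 0.383 and 0.257 CPM after rakicidin A (log2 -3.09 ± 0.31, adjusted p = 2.36e-07). CSF3 (log2 -3.27 ± 0.53) and CSF2 (log2 -2.22 ± 0.31), growth factors of granulocytes and macrophages, had large differences at low levels, with CSF2 at 1.32, 0.912 and 1.02 CPM after BE-43547A1 and 0.291, 0.191 and 0.214 CPM after rakicidin A. IL6R, a receptor subunit, was at 51.1, 49.2 and 46.8 and 23.2, 25.5 and 22.9 CPM (log2 -1.04 ± 0.07). CSF1, a macrophage growth factor, was at 121, 122 and 102 CPM after BE-43547A1 and 68.6, 72.7 and 66.1 CPM after rakicidin A, above and below DMSO at 81.04, 80.8 and 92.2 CPM. On the other side were IL1RAP (log2 0.61 ± 0.08) and IL1RL1 (log2 0.50 ± 0.06), receptors of the IL1 family, and OSMR (log2 0.35 ± 0.06), the oncostatin M receptor.

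Promoters of 4 genes that were higher after BE-43547A1 are shown for the motifs they hold. A CArG box, the site of SRF, was in 2 of 14 promoters of the early gene list (14.3%) and 1.15% of all promoters. The NF-kB site was in 5 of 7 chemokine promoters (71.4%), 6 of 14 promoters of the NF-kB list (42.9%), 5.97% of the tested genes' promoters and 5.06% of all. The AP-1 motif TGANTCA was in 9.61% of 281 promoters of genes at least 2-fold lower after rakicidin A, 4.43% of 203 promoters of genes at least 2-fold higher, 3.89% of the tested genes' promoters and 6.55% of all. All are the 250 bases before the RefSeq start in GRCh38.p14, 5′ to 3′ on the gene's strand, with the CArG boxes of EGR1, the AP-1 motif of IL11 and the NF-kB sites of NFKBIA and CXCL2 in capitals:
EGR1, chr5:138465229-138465478, plus strand: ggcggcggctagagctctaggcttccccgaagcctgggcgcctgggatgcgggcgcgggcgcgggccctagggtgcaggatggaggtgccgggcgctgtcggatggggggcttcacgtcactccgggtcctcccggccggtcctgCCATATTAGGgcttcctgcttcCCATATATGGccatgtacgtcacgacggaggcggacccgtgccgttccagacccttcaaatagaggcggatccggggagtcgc
IL11, chr19:55370464-55370713, minus strand: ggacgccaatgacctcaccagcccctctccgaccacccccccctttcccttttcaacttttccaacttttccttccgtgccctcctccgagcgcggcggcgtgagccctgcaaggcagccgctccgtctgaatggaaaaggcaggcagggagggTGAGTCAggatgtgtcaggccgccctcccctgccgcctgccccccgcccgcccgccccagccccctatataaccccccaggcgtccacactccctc
NFKBIA, chr14:35404750-35404999, minus strand: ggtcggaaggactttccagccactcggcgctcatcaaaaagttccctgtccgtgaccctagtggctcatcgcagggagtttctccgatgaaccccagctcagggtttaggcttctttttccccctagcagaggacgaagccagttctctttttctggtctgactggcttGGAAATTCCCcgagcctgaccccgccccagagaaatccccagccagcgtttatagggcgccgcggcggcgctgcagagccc
CXCL2, chr4:74099196-74099445, minus strand: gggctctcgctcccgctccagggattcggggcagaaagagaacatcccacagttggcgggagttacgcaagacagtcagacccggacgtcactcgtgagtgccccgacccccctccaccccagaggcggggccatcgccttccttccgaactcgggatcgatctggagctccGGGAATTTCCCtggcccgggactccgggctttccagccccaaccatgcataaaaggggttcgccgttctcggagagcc
The boxes of EGR1 begin at -105 and -83, the AP-1 motif of IL11 at -96 and the NF-kB sites at -81 in NFKBIA and at -78 and -77 (overlapping matches on both strands) in CXCL2. The hypoxia response element ACGTGC was in 4.93% of the promoters of genes at least 2-fold higher after rakicidin A and 6.41% of those at least 2-fold lower, against 7.47% of the tested genes' promoters. It was in 4 of 14 promoters of the early gene list (28.6%) and in none of the NF-kB and chemokine lists.

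Of 8 genes of the EGF family and its feedback, 5 were higher after rakicidin A and none lower, all above DMSO after both compounds. HBEGF, a ligand, was at 192, 207 and 196 CPM after rakicidin A, 123, 134 and 124 CPM after BE-43547A1 and 8.30, 9.99 and 9.25 CPM in DMSO (log2 0.64 ± 0.06, adjusted p = 1.19e-07). EGFR, the receptor, was at 1004, 1040.0 and 1103 CPM after rakicidin A and 693, 696 and 703 CPM after BE-43547A1 (log2 0.59 ± 0.06). Of 18 MAP kinase phosphatases, sprouty and ETV genes, 5 were higher and 6 lower. DUSP6, an ERK phosphatase, was at 69.4, 67.05 and 60.3 CPM after rakicidin A and 42.9, 39.8 and 42.01 CPM after BE-43547A1 (log2 0.66 ± 0.07). DUSP8, a phosphatase of stress kinases, went the other way at 22.1, 28.6 and 22.8 CPM and 53.6, 48.7 and 43.97 CPM (log2 -0.99 ± 0.10). So did the feedback inhibitor SPRY4 at 101, 112 and 93.3 CPM and 169, 178 and 161 CPM (log2 -0.73 ± 0.07).

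Calcium signalling genes were mixed, with 3 of 22 higher and 9 lower after rakicidin A, and with 6 higher without DMSO replicate 3. NFATC2, a calcineurin-driven factor, was at 90.7, 96.8 and 83.7 CPM after BE-43547A1, 45.7, 50.4 and 47.2 CPM after rakicidin A and 7.84, 7.09 and 8.62 CPM in DMSO (log2 -0.92 ± 0.07, adjusted p = 8.88e-09), in contrast to RCAN1, given above with near-equal levels. Of 14 BMP and SMAD feedback genes 7 were lower (4 without BE-43547A1 replicate 3) and 1, BMP6 (log2 0.58 ± 0.06), a ligand, was higher. ID2, an inhibitor of helix-loop-helix factors, was at 15.98, 18.1 and 15.7 CPM after rakicidin A and 32.8, 32.7 and 27.7 CPM after BE-43547A1, both below DMSO at 64.3, 63.3 and 52.7 CPM (log2 -0.90 ± 0.09). ID1 had the same order, at 25.97, 22.6 and 23.97 CPM after rakicidin A, 43.3, 34.8 and 36.6 CPM after BE-43547A1 and 312, 272 and 225 CPM in DMSO (log2 -0.66 ± 0.10).

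Of 21 heat shock genes, which mostly encode chaperones of the cytosol, none was higher after rakicidin A and 13 were lower (median log2 -0.23, or -0.44 with the GC and length offset), though 3 were higher without DMSO replicate 3. HSPA1A, an inducible HSP70, stood at 109.8, 139 and 106 CPM after BE-43547A1, 33.6, 28.5 and 28.6 CPM after rakicidin A and 82.7, 83.2 and 73.4 CPM in DMSO (log2 -1.97 ± 0.09, adjusted p = 5.42e-11), with rakicidin A below and BE-43547A1 above the solvent. Its near-identical copy HSPA1B showed log2 -1.70 ± 0.10, and the reads of the pair cannot be cleanly divided. HSPA8, the constitutive HSP70, was below DMSO after both, at 1059.8, 1075 and 993 CPM after rakicidin A, 2161, 2221 and 1851 CPM after BE-43547A1 and 3428, 3374 and 2968 CPM in DMSO (log2 -0.99 ± 0.07). DNAJB1, an HSP40 co-chaperone, was above DMSO after both, at 109, 121 and 105 CPM and 188, 204 and 171 CPM in the same order of compounds (log2 -0.75 ± 0.07). The heat shock element (GAA, TTC and GAA with 2 bases between them) was in 2 of 19 promoters of the list (10.5%) and 0.441% of all.

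**Figure D3:**
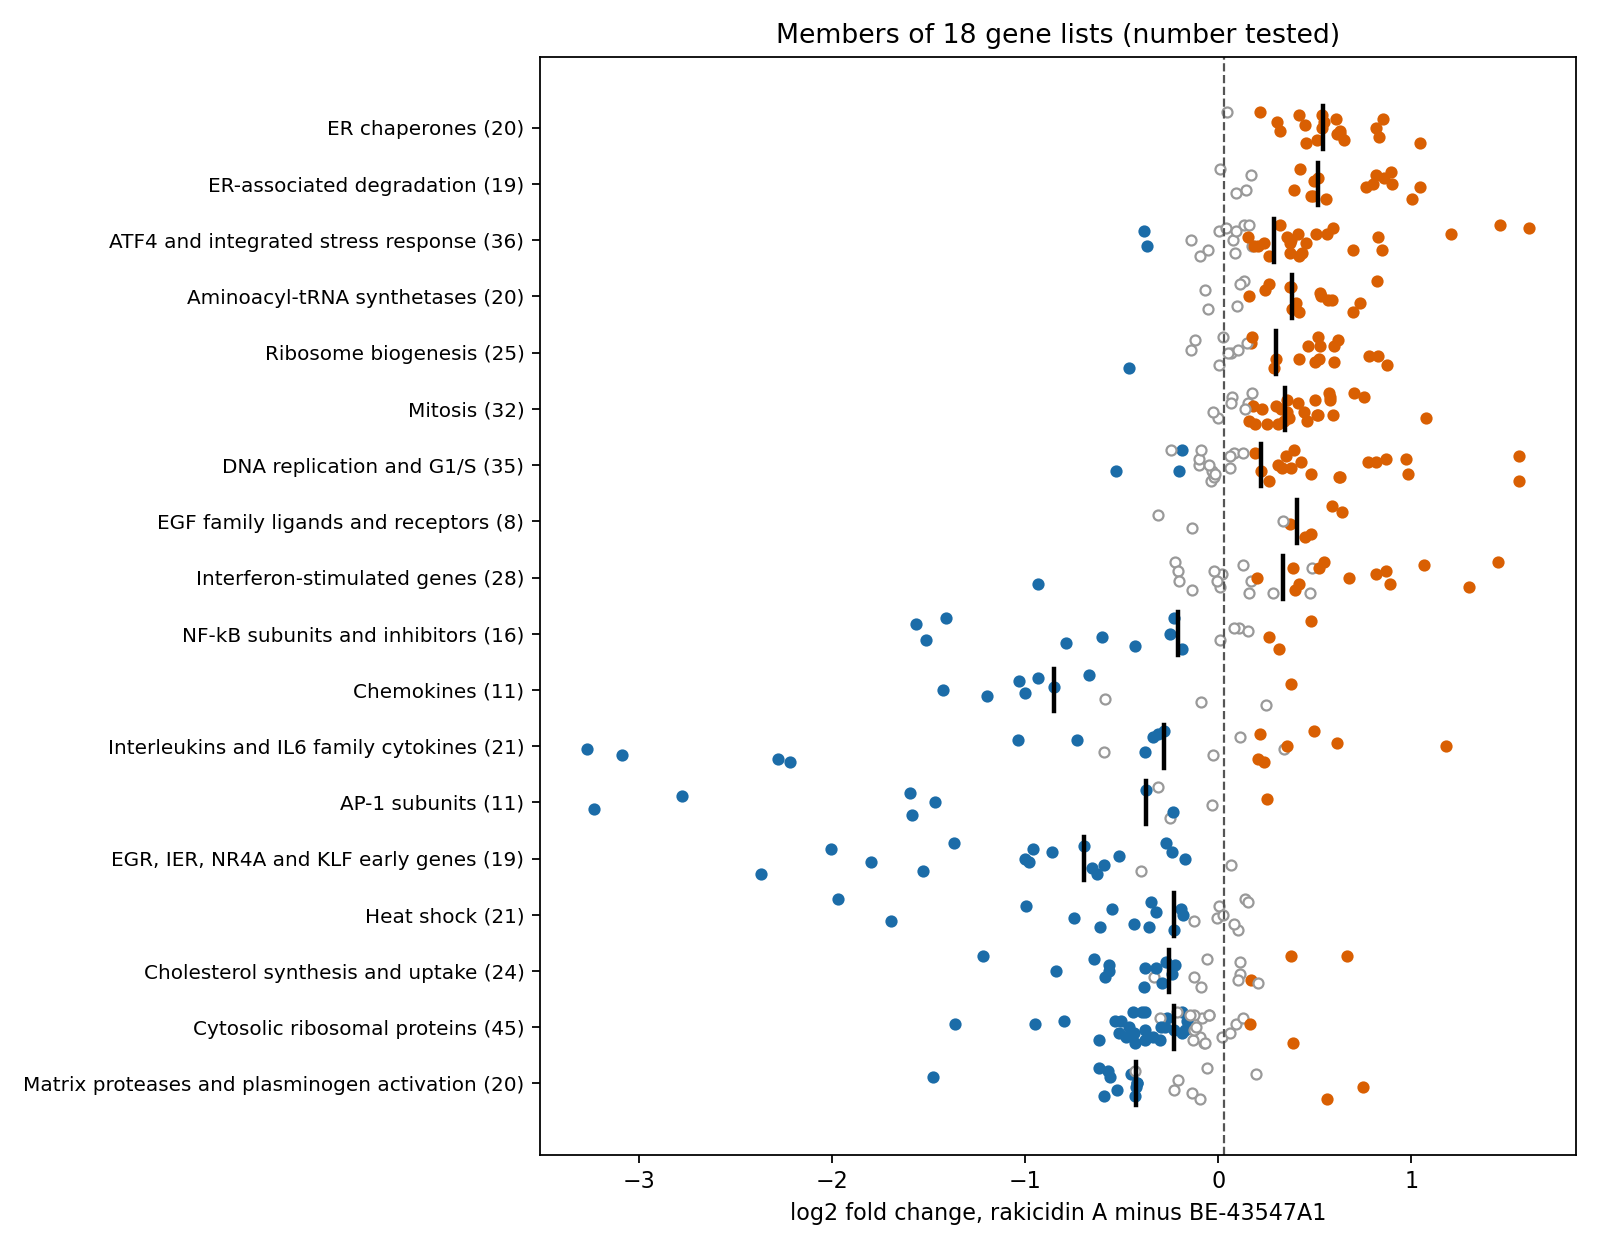
Log2 fold change of rakicidin A over BE-43547A1 (x axis) for each tested member of 18 gene lists (y axis, number of members in brackets), with filled points for members that passed edgeR's test, open points for those that did not, a black bar at the list median and a dashed line at the median of all genes. The bars of ER chaperones (0.54) and chemokines (-0.85) lie on opposite sides of the dashed line at 0.03.

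Of 32 mitotic genes 25 were higher after rakicidin A and none lower (median log2 0.35), and with the GC and length offset 19 were higher and 1 lower (median log2 0.18). Without the offset, in 20 of the 23 whose groups were apart both compounds lay below DMSO with BE-43547A1 lowest. That order held in 1208 of the 4984 GENCODE genes that differed with all groups apart. KIF2C, a microtubule depolymerase, was at 122, 109.9 and 121 CPM after rakicidin A, 56.7, 54.2 and 56.6 CPM after BE-43547A1 and 130.01, 131 and 117 CPM in DMSO (log2 1.07 ± 0.06, adjusted p = 4.15e-10), so that rakicidin A overlapped DMSO. TTK, a spindle checkpoint kinase, was at 117, 115 and 118 CPM, 68.1, 67.9 and 71.6 CPM and 167, 168 and 138 CPM in the same order of groups (log2 0.76 ± 0.07). KIF23, a kinesin of cytokinesis (log2 0.58 ± 0.05), and CENPA, the centromeric histone (log2 0.70 ± 0.07), followed. PLK1 (log2 -0.03, 95% interval -0.31 to 0.25) and CDC20 (log2 0.07, 95% interval -0.07 to 0.22), mitotic regulators, did not pass.

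Of 35 replication and G1/S genes, 19 were higher after rakicidin A and 3 lower (median log2 0.22). With total counts alone 16 were higher and 7 lower, and with the GC and length offset 15 and 6 (median log2 0.11). CDC6, which helps load the replicative helicase, was the one called member with both compounds above DMSO, at 543, 518 and 549 CPM after rakicidin A, 168, 181 and 198 CPM after BE-43547A1 and 93.98, 102 and 96.5 CPM in DMSO (log2 1.56 ± 0.06, adjusted p = 1.66e-11). CDC25A, a phosphatase that activates CDK2, lay above DMSO after rakicidin A and below it after BE-43547A1, at 32.00, 28.5 and 29.2 CPM, 10.9, 9.89 and 9.71 CPM and, in DMSO, 23.2, 24.3 and 23.97 CPM (log2 1.56 ± 0.08, adjusted p = 7.05e-11). FEN1, the flap endonuclease, had the same order, at 75.2, 74.6 and 72.9 CPM after rakicidin A, 38.5, 35.2 and 38.99 CPM after BE-43547A1 and 63.7, 62.4 and 54.03 CPM in DMSO (log2 0.98 ± 0.07). For CDC25A and FEN1 the position above DMSO after rakicidin A, by a small gap, rests on the TMM scaling. MCM10, a replication initiation factor, was below DMSO after both (log2 0.97 ± 0.07), and TYMS, thymidylate synthase (log2 -0.53 ± 0.08), was among the 3 lower after rakicidin A.

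**Figure D4:**
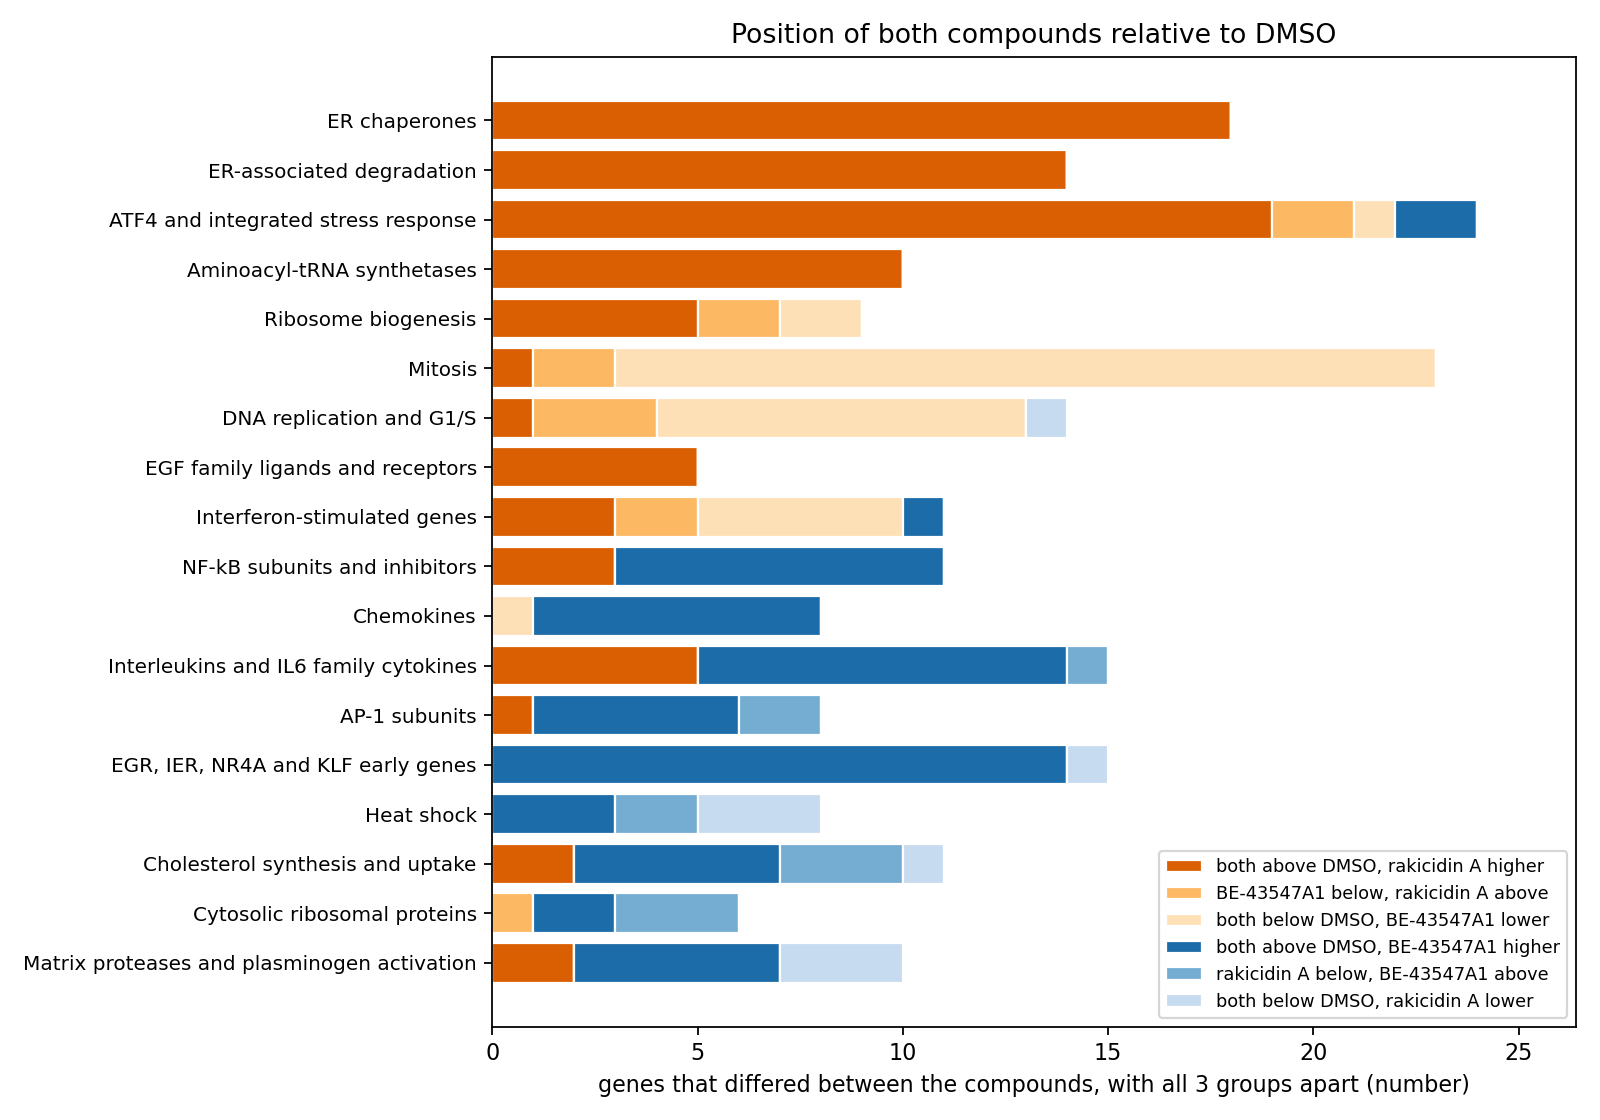
Number of genes (x axis) in each of 18 lists (y axis) that differed between the compounds and whose 3 groups did not overlap. The genes are divided by the position of both compounds relative to DMSO under the TMM scaling. Orange shades stand for a higher level after rakicidin A and blue shades for a higher level after BE-43547A1; 18 ER chaperones lie above DMSO after both, whereas 20 mitotic genes lie below DMSO after both.

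The 2 lists of ribosome genes went opposite ways. Their median transcript length also differed, at 3535.5 bases for ribosome biogenesis and 1197 bases for ribosomal proteins. Of 25 ribosome biogenesis genes 16 were higher after rakicidin A and 1, FBL, lower (median log2 0.30), led by RRN3, an initiation factor of RNA polymerase I, at 355, 352 and 376 CPM after rakicidin A and 191, 189 and 212 CPM after BE-43547A1 (log2 0.87 ± 0.06, adjusted p = 2.94e-09). POLR1B, a polymerase I subunit, was at 78.4, 79.9 and 82.1 CPM and 45.9, 43.5 and 45.9 CPM in the same order, above and below DMSO at 76.7, 77.02 and 74.1 CPM (log2 0.83 ± 0.05). The rakicidin A values of POLR1B lay close to DMSO, so their position above it rests on the TMM scaling. Of 45 cytosolic ribosomal proteins, 26 were lower after rakicidin A and 2 higher (median log2 -0.23), and with total counts alone 39 were lower and 1 higher. RPL24 stood at 282, 284 and 249.9 CPM after BE-43547A1 and 138, 153 and 129.97 CPM after rakicidin A (log2 -0.95 ± 0.08). Ribosomal protein genes have many processed copies, so their counts depend on how shared reads were treated.

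Mitochondrial genes split as well, again with unlike median transcript lengths. These were 1317 bases for oxidative phosphorylation and 2769 bases for chaperones, proteases and import factors. Of 54 nuclear genes of oxidative phosphorylation 26 were lower after rakicidin A and 6 higher (median log2 -0.17, or -0.09 with the GC and length offset; 3 higher with total counts alone or without BE-43547A1 replicate 2), with ATP5O, an ATP synthase subunit, at 19.8, 19.02 and 18.7 CPM after rakicidin A and 30.7, 31.1 and 30.4 CPM after BE-43547A1 (log2 -0.68 ± 0.08). Of 21 mitochondrial chaperones, proteases and import factors, 13 were higher and 2 lower (median log2 0.29, or 0.17 with the GC and length offset). TOMM70A, an import receptor of the outer membrane, was at 296, 291 and 305 CPM after rakicidin A and 138, 128 and 148 CPM after BE-43547A1, above and below DMSO at 225, 218 and 196 CPM (log2 1.11 ± 0.06, adjusted p = 4.25e-10). Of 13 genes of mitochondrial DNA 2 were higher and 1 lower (4 lower without the filter). The calls of MT-ND3, MT-ATP8 and MT-CO2 were lost without single libraries or with DESeq2.

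Of 31 HIF targets 13 were higher after rakicidin A and 5 lower (median log2 0.11, or 0.03 with the GC and length offset), against 10 and 8 both with total counts alone and with the GC and length offset. The shares were near the 35.1% higher and 19.1% lower of all protein-coding genes tested. ANGPTL4, a lipoprotein lipase inhibitor, was at 106, 93.7 and 89.6 CPM after rakicidin A and 231, 227 and 211 CPM after BE-43547A1, the latter overlapping DMSO at 212, 217 and 237 CPM (log2 -1.21 ± 0.07, adjusted p = 2.93e-10). ADM, the vasoactive peptide adrenomedullin, had the opposite direction at 746, 750.5 and 722 CPM and 429.9, 412 and 469 CPM (log2 0.76 ± 0.06). EGLN1, an oxygen sensor that marks HIF for decay, was at log2 0.53 ± 0.06. Of 23 genes of glycolysis 13 were lower after rakicidin A and 2 higher. GAPDH was at 860.2, 819.9 and 797 CPM after rakicidin A, 1350.5, 1230.2 and 1160.2 CPM after BE-43547A1 and 977, 999 and 975 CPM in DMSO (log2 -0.59 ± 0.06). PDK1, which limits pyruvate entry into mitochondria, was higher after rakicidin A (log2 0.54 ± 0.06). LDHA and HK2 did not pass, with 95% intervals of -0.21 to 0.08 and -0.15 to 0.15.

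Of 24 genes of cholesterol synthesis and uptake 13 were lower after rakicidin A and 3 higher (median log2 -0.26). INSIG1, the ER brake on SREBP, was at 163, 162 and 159.6 CPM after BE-43547A1, 72.1, 70.9 and 64.5 CPM after rakicidin A and 88.7, 78.5 and 83.8 CPM in DMSO, above and below the solvent (log2 -1.22 ± 0.06, adjusted p = 7.46e-11). HMGCS1, an early enzyme of the pathway, was at 455, 437 and 442 CPM and 288, 284 and 280.4 CPM, both above DMSO at 119, 105 and 117 CPM (log2 -0.65 ± 0.06). STARD4, a sterol carrier (log2 0.67 ± 0.07), was among the 3 on the other side. Of 23 genes of fatty acid and triglyceride synthesis 11 were lower and 3 higher.

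In the NRF2 list, SLC7A11, TXNRD1 and the glutathione synthesis genes GCLM and GCLC were the 4 of 19 genes higher after rakicidin A, while 8 were lower. GCLM was at 136, 136 and 141 CPM after rakicidin A and 78.6, 74.8 and 81.8 CPM after BE-43547A1 (log2 0.81 ± 0.06). TXNRD1, thioredoxin reductase, was at 2488, 2453 and 2427 and 1429, 1452 and 1590.2 CPM (log2 0.72 ± 0.06). HMOX1 and NQO1, heme oxygenase and a quinone reductase, did not pass, with 95% intervals of -0.23 to 0.01 and -0.12 to 0.12. The 8 on the other side included the pentose phosphate genes PGD, TALDO1 and TKT at log2 -0.38 to -0.24.

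Lysosome and autophagy genes divided, with 10 of 32 higher and 14 lower after rakicidin A, and 5 and 17 with the GC and length offset. WIPI1, an autophagosome factor, was at 56.9, 50.7 and 54.1 CPM after rakicidin A, 25.9, 25.4 and 28.3 CPM after BE-43547A1 and 8.60, 8.32 and 8.45 CPM in DMSO (log2 1.02 ± 0.07). GLA, the lysosomal alpha-galactosidase, was at 80.1, 83.5 and 72.1 CPM after rakicidin A, 182, 173 and 147 CPM after BE-43547A1 and 56.02, 47.8 and 43.5 CPM in DMSO (log2 -1.09 ± 0.09). Of 28 proteasome subunits 10 were higher and 3 lower, and with total counts alone 5 and 9, so that the share called was close to the 48.5% of all GENCODE genes. p53 targets (7 of 24 higher, 6 lower, 3 and 9 with total counts alone, and 4 higher without the filter) had shares near the 28.2% and 20.3% of all GENCODE genes, as did the 24 BCL2 family and death receptor genes, of which 7 were higher and 4 lower (8 lower under total counts alone). PLK3, a stress kinase, was at 10.8, 8.97 and 9.52 CPM after rakicidin A and 23.4, 25.2 and 19.96 CPM after BE-43547A1 (log2 -1.23 ± 0.11). TNFRSF10B, a death receptor, was at 148, 153 and 157 and 107, 101 and 105 CPM (log2 0.54 ± 0.06). The anti-apoptotic BIRC2 (log2 0.68 ± 0.07) and BCL2L1 (log2 0.56 ± 0.06) were higher after rakicidin A, and MCL1 (log2 -0.16 ± 0.05) was lower.

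Of 28 interferon-stimulated genes 13 were higher after rakicidin A and 1, IRF1, lower (median log2 0.33, or 0.22 with the GC and length offset), against 4 lower with total counts alone. IFIT2, which binds foreign RNA, was at 50.8, 42.1 and 45.4 CPM after rakicidin A, 18.5, 18.9 and 18.8 CPM after BE-43547A1 and 23.3, 26.5 and 21.7 CPM in DMSO (log2 1.30 ± 0.08, adjusted p = 1.09e-09). IFIT5 was below DMSO after both, at 19.9, 18.7 and 21.6 CPM after rakicidin A, 7.57, 7.10 and 7.28 CPM after BE-43547A1 and 34.3, 34.3 and 31.2 CPM in DMSO (log2 1.45 ± 0.08). OAS3, a sensor of double-stranded RNA, did not pass, with a 95% interval of -0.16 to 0.19. IRF1, an early-induced factor, was at 23.2, 23.2 and 21.95 CPM after rakicidin A and 45.1, 48.9 and 36.6 CPM after BE-43547A1 (log2 -0.93 ± 0.09).

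Genes of the cell surface and matrix held both directions. Of 20 matrix proteases, plasminogen activators and inhibitors, 11 were lower after rakicidin A and 2 higher (median log2 -0.42). PLAU, the urokinase activator, was at 629, 616 and 505 CPM after BE-43547A1, 212, 224 and 191 CPM after rakicidin A and 154, 159.6 and 148 CPM in DMSO (log2 -1.48 ± 0.08, adjusted p = 1.60e-10). MMP1, interstitial collagenase, had the other direction at 27.7, 25.9 and 31.4 CPM after rakicidin A and 17.2, 14.7 and 18.5 CPM after BE-43547A1 (log2 0.75 ± 0.10). Of 21 collagens and laminins 8 were lower and 1 higher. Of 20 semaphorins and their receptors 9 were lower, led by SEMA4A, and 3 higher, led by SEMA3A (log2 0.72 ± 0.06). Of 10 keratins 5 were lower, led by KRT8 (log2 -0.72 ± 0.05), and 1, KRT15, higher (log2 0.53 ± 0.08). Of 17 epithelial-mesenchymal regulators, cadherins and junction genes 4 were higher and 5 lower, and 8 were lower with the GC and length offset. Of all GENCODE genes tested 28.2% were higher and 20.3% lower without that offset. The tight junction genes CLDN1 (log2 0.97 ± 0.06) and OCLN (log2 0.64 ± 0.08) were higher after rakicidin A and CLDN4 (log2 -0.67 ± 0.07) lower. Among 19 YAP and TEAD targets 8 were higher and 2 lower (5 lower at a minimum of 1 CPM in 3 libraries), with AJUBA, a LIM scaffold, at 125, 119.8 and 129 CPM and 60.7, 55.7 and 60.6 CPM (log2 1.08 ± 0.07). With total counts alone the YAP and TEAD count became 7 and 7, and with the GC and length offset 9 and 6.

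RNA-binding genes varied by member. Of 14 regulators of mRNA decay 4 were higher after rakicidin A and 5 lower, beside 28.2% and 20.3% of all GENCODE genes tested. ZFP36, which binds AU-rich elements, was at 339, 407 and 299 CPM after BE-43547A1 and 113, 119 and 108 CPM after rakicidin A (log2 -1.62 ± 0.15, adjusted p = 6.45e-08). ZC3H12A, an endonuclease, was at 15.4, 14.7 and 11.5 and 5.41, 5.36 and 5.27 CPM (log2 -1.38 ± 0.12). The rakicidin A values of ZFP36 lay below the DMSO values of 125, 121 and 204 CPM. Of 26 splicing factors and CLK kinases 11 were higher after rakicidin A and 5 lower, but with the GC and length offset 4 were higher and 11 lower, and with total counts alone 6 and 8. Without BE-43547A1 replicate 2, or without rakicidin A replicate 3, 2 splicing genes were lower. SRSF6, a splicing factor, was at 324, 306 and 330.2 CPM after rakicidin A and 136, 146 and 159 CPM after BE-43547A1, above and below DMSO at 194, 210.1 and 242 CPM (log2 1.12 ± 0.07). Of 17 nuclear long noncoding RNAs and snoRNA hosts 11 were higher after rakicidin A (7 with total counts alone), SNHG7 among them (log2 0.92 ± 0.06), and MALAT1 (log2 -0.69 ± 0.15), NEAT1 (log2 -0.43 ± 0.09) and KCNQ1OT1 (log2 -0.35 ± 0.06) were lower. Of 17 circadian clock genes 7 were higher after rakicidin A and 3 lower, with CRY1 at log2 0.56 ± 0.06 and DBP at log2 -1.19 ± 0.23, but 3 and 4 with the GC and length offset and 4 and 5 with total counts alone. Wnt feedback genes (4 of 14 higher, 5 lower) and histones (2 of 16 higher, 4 lower, 5 and 3 with that offset, and 7 lower with total counts alone) showed no common direction.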

How the data were processed

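RNA-seq counts of 3 libraries per group were analysed. The authors deposited raw read counts per feature in 1 table of GENCODE and MiTranscriptome features; per the submitters' processing notes TopHat2, HTSeq, GRCh37 and hg19 were used, with versions, settings and strand not given in the sources used here. Library sizes were scaled by TMM and features filtered by filterByExpr in edgeR 4.0.16 under R 4.3.3. A quasi-likelihood fit with 1 mean per group over all 9 libraries (6 residual degrees of freedom) gave the contrast of rakicidin A over BE-43547A1, and Benjamini-Hochberg adjustment ran over 22353 features, with a threshold of 0.05. Standard errors (SE) follow each ± sign, and any adjusted p without a named tool comes from this test. The depth, 26203326 to 45048999 counts per library, limits genes of low count. The test was also run on simulated counts in which few features changed. That run cannot vouch for data in which a large share differs.

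Alternatives were RLE factors, total counts alone, other filters, GENCODE features alone, DESeq2 1.42.0 and limma-voom (limma 3.58.1). Others were the 6 treated libraries, a replicate block, thinning, each library left out and, chosen after seeing the data, an offset for GC and length. The members and lists were chosen with earlier results of these data known. Named genes were the 12 largest differences each way (mean of at least 2 CPM, compounds not overlapping), up to 4 called members per list with the smallest p, and the 8 largest shared departures from DMSO (mean of at least 10 CPM) whose 95% interval lay within 1.5-fold. Other members named, such as exceptions, members that did not pass and those with a printed promoter, were chosen after their values were seen.

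Promoters are the 250 bases before the RefSeq start in GRCh38.p14, matched by symbol. Motifs were searched on both strands: AP-1 TGANTCA, CRE TGACGTCA, C/EBP-ATF element TGATGNAA, ER stress element CCAAT, 9 bases, CCACG, UPRE TGACGTGG, heat shock element GAA, 2 bases, TTC, 2 bases, GAA, hypoxia response element ACGTGC, TEAD GGAATGT, the NF-kB site and the CArG box. The NF-kB matches of CXCL2 overlap each other.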

Additional observations from a re-analysis of the deposited data

How the results depend on the processing

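The counts of genes higher (5119) and lower (3672) after rakicidin A stayed within 1.5 times under the other normalizations, filters and tools run. The excess of higher genes was smaller with GENCODE features alone (4669 and 4242, median log2 -0.01) and at 1 CPM in 3 libraries (4435 and 3821). With total counts alone it was reversed (3741 and 5263). Asking for a log2 fold change of at least 1 left 367 and 818 by its own construction. Leaving out each library in turn gave 4531 to 5600 higher and 2856 to 4021 lower. The GC and length offset gave 4223 higher and 4104 lower, with 6606 of the 8791 calls kept in the same direction and 6 in the opposite one. For libraries of the same replicate number, the correlations of deviations between rakicidin A and BE-43547A1 were 0.02, -0.01 and 0.05. Those with DMSO ran from -0.06 to 0.12. With 3 libraries per group they cannot decide whether libraries were handled in numbered sets, which is not stated. The fit with the replicate block gave 5095 higher and 3648 lower. No named gene that passed the test changed direction under these settings. The calls of HIST1H2BK (log2 -0.08, adjusted p = 0.341 in edgeR) and NR1D2 (log2 0.07, adjusted p = 0.313 in edgeR) were lost with the GC and length offset, and the cause was not tested. Depth limits genes under about 1 CPM, such as CD14 and CSF3.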

Other observations

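A pair of gene classes stood out by their counts after their values were seen, and neither was tested as a class. Of 455 tested genes with a ZNF symbol, which mostly encode zinc finger proteins, 308 (67.7%) were higher after rakicidin A and 21 (4.62%) lower. The shares over all protein-coding genes were 35.1% and 19.1%. The median log2 fold change of the ZNF genes was 0.49. With the GC and length offset the counts were 263 and 34 of 448, with a median of 0.34. In 116 of the 227 that differed and had all 3 groups apart both compounds lay below DMSO with BE-43547A1 lower. In 53 BE-43547A1 lay below and rakicidin A above. Over all GENCODE genes these orders held in 1208 and 508 of 4984. ZNF606 averaged 9.13 CPM after rakicidin A, 3.51 CPM after BE-43547A1 and 20.04 CPM in DMSO (log2 1.36 ± 0.14), and ZNF568 averaged 58.3, 23.6 and 28.2 CPM (log2 1.30 ± 0.07). The summed share of counts on ZNF genes ranged from 1.35% to 1.40% in the rakicidin A libraries, from 1.06% to 1.12% in the BE-43547A1 libraries and from 1.37% to 1.43% in DMSO. Zinc finger genes share repeated sequence, so reads may be divided among them by the counting.

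Antisense genes went the other way. Of 1214 tested 79 (6.51%) were higher and 377 (31.1%) lower after rakicidin A, with a median log2 fold change of -0.34. The counts were 91 and 342 with the GC and length offset, and 65 and 300 of 1074 after thinning to the smallest library. The median level of antisense genes was low, at 0.77 CPM. Their share of counts ranged from 0.243% to 0.260% in the rakicidin A libraries, from 0.303% to 0.337% in the BE-43547A1 libraries and from 0.329% to 0.330% in DMSO. Of 4146 MiTranscriptome transcripts tested 260 (6.27%) were higher and 1354 (32.7%) lower, with a median of -0.42. Their median level was 0.57 CPM, and thinning gave 198 and 1098 of 3572. The strand setting of the counting is not given, so reads of the opposite strand cannot be told apart from antisense transcripts. The share of reads on no feature was lower after rakicidin A, at 16.4% to 17.96%, than after BE-43547A1, at 18.1% to 19.2%. In DMSO it was 20.3% to 20.8%, and its part in these counts was not tested.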
